A study of Mus musculus with 55 samples.

Results

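The genes described here are 10 of the 55421 in the count table: the integrin α chains Itga4, Itga5, Itga6, Itgal and Itgam, the β chains Itgb1, Itgb2, Itgb3 and Itgb7, and Cd44. They were chosen by symbol as the adhesion receptors through which blood stem and progenitor cells hold to the marrow niche, and each symbol occurs once. Itga2b, a megakaryocyte integrin, was not included. An integrin is a pair of 1 α and 1 β chain in the membrane, which binds matrix or a counter-receptor on another cell once talin and kindlin proteins bind the tail of the β chain. α4β1 (VLA-4) binds Vcam1 and fibronectin, α5β1 (VLA-5) binds fibronectin and α6β1 binds laminin. αLβ2 (LFA-1) binds Icam1, αMβ2 (Mac-1) is a receptor of myeloid cells, α4β7 binds Madcam1 and Itgb3 pairs with αv or with Itga2b. Cd44 is a single-chain receptor for hyaluronan, the matrix sugar of the endosteal niche, and is linked to the actin cortex by ezrin, radixin and moesin.

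The study sorted 6 marrow populations from C57BL/6 mice of 2 genotypes and sequenced their RNA. WT mice were compared with Tet2 knockout mice, which carry floxed Tet2 alleles and the Mx1-Cre transgene, an interferon-inducible Cre that also acts outside the blood. Cre was induced at 4 weeks of age with 5 doses of poly(I:C) and mice were analysed 16 weeks later. The labels do not give which alleles or injections the WT mice had. Long-term stem cells (LT-HSC: Lin-cKit+Sca1+CD48-CD150+), short-term stem cells (ST-HSC: the CD150- counterpart), common myeloid progenitors (CMP), granulocyte-monocyte progenitors (GMP), megakaryocyte-erythroid progenitors (MEP) and common lymphoid progenitors (CLP) were sorted, 200 cells a library by the labels, while the study's methods give a somewhat larger number per group. Each group had 4 libraries, apart from the LT-HSC and the ST-HSC of WT mice with 3 each. The gates used antibodies to none of the 10 proteins, and the lineage cocktail named in the methods (B220, CD4, CD5, CD8, Gr1, Ter119) held no antibody to Mac-1. Totals ran from 50458473 to 102148079 counts over the 46 libraries. Levels are CPM after TMM scaling, the counts of a gene relative to the scaled library total. A gene was called where edgeR's quasi-likelihood test gave a Benjamini-Hochberg adjusted p under 0.05 over all genes tested and, for a comparison of 2 groups, a change of at least 2-fold.

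Most markers of each population were found in its own libraries. Rag1, a CLP marker, was at 0 in all WT CLP libraries, and Slamf1, an HSC marker, in all knockout ST-HSC libraries. The 7 HSC markers summed to 108 to 364 CPM in WT CLP, beside 366 to 387 CPM in WT ST-HSC. The CLP libraries were also uneven. The summed level of 6 GMP markers ran from 5.06 to 3162 CPM in the WT CLP libraries and from 2.69 to 12416 CPM in the Tet2 knockout CLP libraries. Tet2 knockout CLP library 3 stood apart, with that highest value, with 1502 CPM over 6 megakaryocyte markers and with 554 CPM over 6 CLP markers, against 1728 to 2818 CPM in the other 3. Knockout CLP libraries 4 and 5 also held GMP markers, at 2259 and 4279 CPM, and library 5 megakaryocyte markers, at 409 CPM. Tet2 itself had a mean of 12.3 to 37.6 CPM in the WT populations and 11 to 47.7 CPM in the knockout populations. The values are sums over the gene and do not separate the deleted part, so they do not test the deletion. In sorted bulk samples, fewer cells of a type and less RNA per cell cannot be told apart. Libraries carry the numbers 2 to 5, and the labels do not say whether libraries of 1 number came from 1 mouse.

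The promoters of the 3 genes to which the results return most are given next: Itga4 and Itgb7, the chains of α4β7, which moved in opposite directions in GMP, and Cd44. They are the RefSeq windows from 250 bases before to 50 after the gene start, build GRCm38.p6, for 6 of the 10 genes matched in that table. The window of Itga4 lies at chr2:79255176-79255475 on the plus strand, that of Itgb7 at chr15:102231886-102232185 on the minus strand and that of Cd44 at chr2:102901616-102901915 on the minus strand. Capitals mark matches on either strand to the letters of 4 motifs, none of which overlap here. The core bound by ETS factors such as PU.1 was searched as GAGGAA and the site of RUNX factors as TGTGGT. The site of the GATA factors was searched as AGATAA, and the box bound by SP and KLF factors as GGGCGG.
Itga4: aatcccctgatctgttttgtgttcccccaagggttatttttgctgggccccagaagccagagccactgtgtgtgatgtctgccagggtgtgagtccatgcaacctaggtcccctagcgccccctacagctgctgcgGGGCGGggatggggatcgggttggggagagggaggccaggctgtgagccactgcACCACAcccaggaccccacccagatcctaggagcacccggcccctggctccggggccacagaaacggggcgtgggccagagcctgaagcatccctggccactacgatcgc
Itgb7: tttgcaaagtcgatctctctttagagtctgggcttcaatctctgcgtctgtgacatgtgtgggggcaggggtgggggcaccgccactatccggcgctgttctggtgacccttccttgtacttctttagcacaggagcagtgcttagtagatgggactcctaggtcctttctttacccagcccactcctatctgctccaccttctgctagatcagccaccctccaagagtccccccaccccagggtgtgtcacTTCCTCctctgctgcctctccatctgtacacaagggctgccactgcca
Cd44: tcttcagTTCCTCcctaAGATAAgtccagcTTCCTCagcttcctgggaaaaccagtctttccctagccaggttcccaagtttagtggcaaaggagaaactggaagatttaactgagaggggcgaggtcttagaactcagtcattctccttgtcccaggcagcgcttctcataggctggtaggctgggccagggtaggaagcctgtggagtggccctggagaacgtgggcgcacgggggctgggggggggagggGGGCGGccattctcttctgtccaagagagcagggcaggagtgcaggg
Itga4 held 1 RUNX match and 1 SP/KLF match, Itgb7 held 1 ETS match, and Cd44 held 2 ETS matches, 1 GATA match and 1 SP/KLF match. Of 32851 mouse promoters of this length, 28.3% held the ETS letters, 16.8% the RUNX letters, 11.2% the GATA letters and 35.7% the SP/KLF letters. The matches are letters in a window and were not tested as binding sites.

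In WT marrow, 7 of the 10 genes differed between the 6 populations (edgeR F test, adjusted p under 0.05), beside 44.6% of the 20006 genes tested. Itga5, Itga6 and Itgb1 did not pass. In the Tet2 knockout, 7 of 10 passed as well, beside 40.2% of 19415 genes, and there Itga5, Itgb1 and Cd44 did not. Along the lineage steps, CLP differed from ST-HSC in 4 of 10 of these genes in WT and in 5 of 10 in the knockout, where the background was 24.5% and 20.1% of genes. The other WT steps gave 1 of 10 from LT-HSC to ST-HSC (0.175% of genes), 0 of 10 from ST-HSC to CMP (5%), 0 of 10 from CMP to GMP (3.15%) and 1 of 10 from CMP to MEP (6.45%). In the knockout these steps gave 1 (0.118%), 0 (3.33%), 0 (3.08%) and 1 (3.62%) of 10. At an unadjusted p under 0.05, edgeR gave 3 of 10 members from ST-HSC to CMP and 1 from CMP to GMP in WT, beside 20.7% and 16.9% of genes, and 0 for both in the knockout, beside 18.9% and 18% of genes. DESeq2 called 2, 0, 0 and 0 of the members at these steps, by adjusted p and 2-fold.

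**Figure D1:**
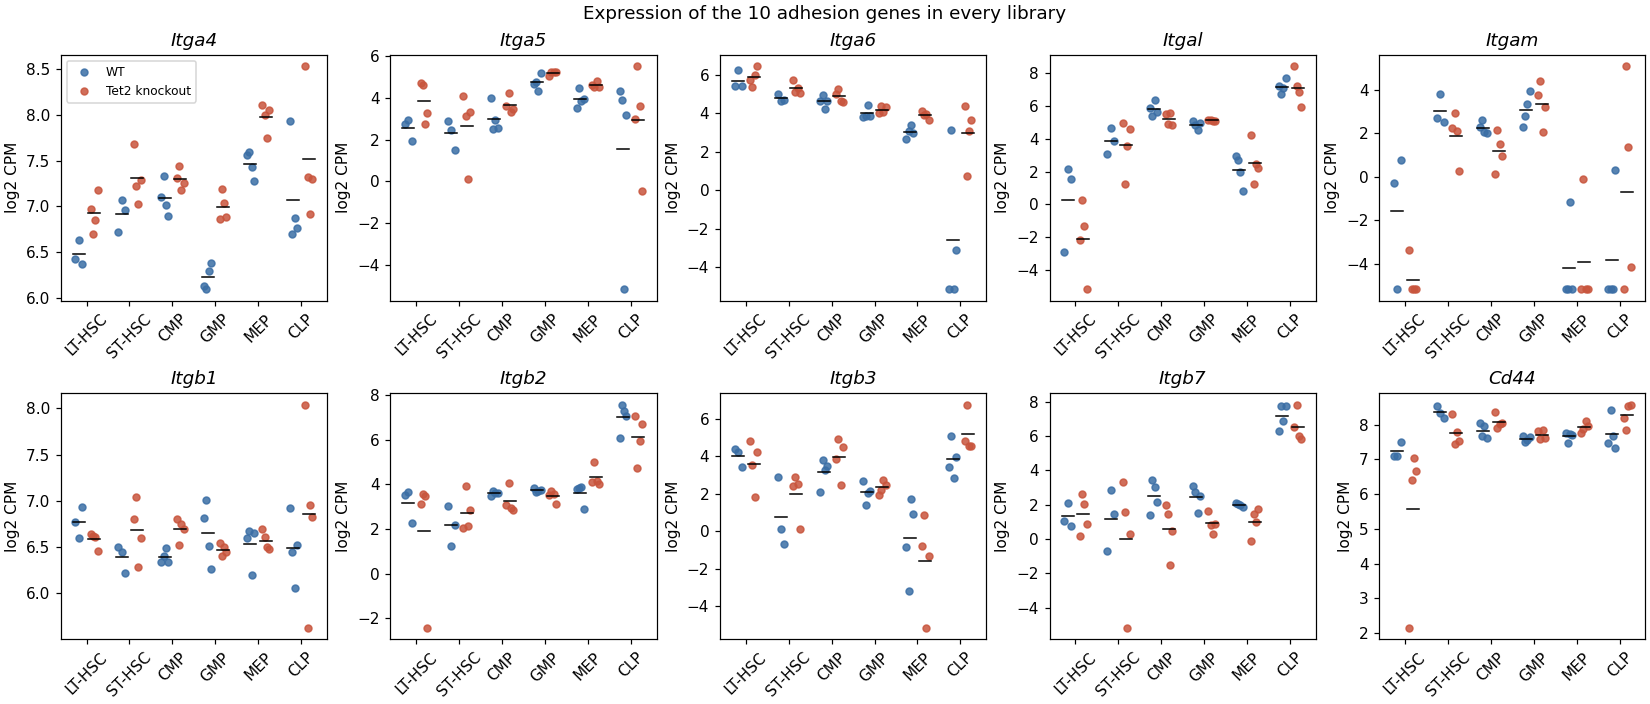
Level of each of the 10 genes in every library, as log2 CPM, against the 6 populations, with WT in blue, Tet2 knockout in red and a bar at the mean of each group. Itgb1 lies in 1 narrow band in nearly all libraries, Itgal, Itgb2 and Itgb7 are high in CLP, Itga6 is high in LT-HSC and low in CLP, and libraries with 0 counts sit at the bottom near -5.

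Itgb1, the common β chain of the VLA integrins (chromosome 8, 128685654 to 128733200 of mm10, plus strand), was the most even of the set. Its WT means ran only from 83.9 ± 4.32 CPM (SD, n = 4) in CMP to 109.6 ± 12.8 (n = 3) in LT-HSC, and per kilobase of exon it held 20.6 to 26.8 CPM per kb in every WT population. None of its neighbours in the order of WT means differed, all pairs overlapping. The TMM factors were 0.516 to 0.713 in the WT CLP libraries and 0.967 to 1.19 in the other WT libraries. The place of CLP in this even order therefore depends on the scaling, as do the CLP levels of the other genes. In the knockout the CLP libraries were the widest, at 264, 49.3, 124 and 113 CPM.

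Itga4, which pairs with Itgb1 or Itgb7 (chromosome 2, 79255426 to 79333123 of mm10, plus strand), was highest in MEP and lowest in GMP among the WT populations. The 4 WT MEP libraries held 189.7, 193, 173 and 156 CPM and the 4 WT GMP libraries 70.1, 68.2, 78.7 and 83.3 CPM, without overlap. Means between these ends were 143 CPM in CLP, 137 in CMP, 121 in ST-HSC and 89.4 in LT-HSC, and every neighbouring pair but ST-HSC and LT-HSC overlapped. From CMP to GMP the WT level changed by -0.84 on the log2 scale (SE 0.21, edgeR adjusted p 0.0227), which passed the p threshold and not 2-fold. Cerkl, a gene of the opposite strand, overlaps Itga4 and lay between 0 and 10.4 CPM; how strand was counted is not given in the sources used here.

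Itga6, the laminin receptor chain (chromosome 2, 71745616 to 71858416, plus strand), had its means in the same descending order in both genotypes: LT-HSC, ST-HSC, CMP, GMP, MEP and CLP. The F test over the populations passed in the knockout (adjusted p 0.000861) and not in WT (adjusted p 0.0801). WT LT-HSC libraries held 43.2, 75.9 and 43.3 CPM, WT MEP libraries 6.36 to 10.4 CPM, and WT CLP libraries 0, 8.78, 0 and 0.0854 CPM. LT-HSC lay above ST-HSC in every WT library, and GMP above MEP in every WT library (exact two-sided permutation p 0.0286, the smallest for 4 against 4 libraries, 0.179 after adjustment over 100 neighbouring pairs). From ST-HSC to CLP, Itga6 was called lower in WT with a change of -3.63 on the log2 scale (SE 1.22, adjusted p 0.0418) and in the knockout with a change of -1.91 (SE 0.44, adjusted p 0.00507). The WT call was lost in 15 of 22 fits that left out 1 library, and the change was -8.90 without WT CLP library 3, the library at 8.78 CPM. Itga5, the fibronectin receptor chain (chromosome 15, 103344286 to 103366763, minus strand), was highest in GMP, at 20.2 to 36.9 CPM in WT, and lowest in WT ST-HSC, at 2.83 to 7.53 CPM. Its neighbours in the WT order all overlapped.

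Itgb7, Itgb2 and Itgal, the leukocyte integrin chains, had their highest group means in CLP in both genotypes. WT CLP libraries held 79.5, 214, 119 and 215 CPM of Itgb7 (chromosome 15, 102215995 to 102231944, minus strand), while the WT means of the other 5 populations were 2.66 to 6.47 CPM. The change from ST-HSC to CLP was 5.48 on the log2 scale (SE 0.62, edgeR adjusted p 3.1e-05) in WT and 4.91 (SE 0.98, adjusted p 0.00455) in the knockout. Every CLP library of either genotype lay above every library of the other populations for this gene.

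For Itgb2, the β chain of LFA-1 and Mac-1 (chromosome 10, 77530252 to 77565708, plus strand), WT CLP libraries held 67.1, 190.02, 154 and 134 CPM, against WT means of 5.03 to 13.3 CPM elsewhere. Its change from ST-HSC to CLP was 4.73 (SE 0.40, adjusted p 7.96e-07) in WT and 3.38 (SE 0.71, adjusted p 0.00359) in the knockout. The knockout CLP libraries held 135, 26.2, 60.6 and 104 CPM, the lowest being library 3, which lay below knockout MEP library 3 at 31.9 CPM.

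Itgal, the α chain of LFA-1 (chromosome 7, 127296260 to 127335138, plus strand), had intermediate group means in several populations. WT means fell from 149 ± 42.5 CPM in CLP to 57.6 ± 17.7 in CMP, 29.0 ± 4.23 in GMP, 15.9 ± 8.59 in ST-HSC, 4.91 ± 2.61 in MEP and 2.46 ± 2.17 in LT-HSC (SD). CLP did not overlap with CMP, nor CMP with GMP, nor ST-HSC with MEP, while GMP overlapped with ST-HSC and MEP with LT-HSC. Itgal rose from ST-HSC to CLP by 3.20 (SE 0.66, adjusted p 0.00326) in WT and by 3.24 (SE 0.82, adjusted p 0.0135) in the knockout. It was lower in MEP than in CMP in WT, with a change of -3.60 (SE 0.61, adjusted p 0.00161). In the knockout the step from LT-HSC to ST-HSC was called too, at 5.28 (SE 0.85, adjusted p 0.0288), where the LT-HSC libraries held 0.191, 1.18, 0.374 and 0 CPM and the ST-HSC libraries 31.4, 2.34, 11.7 and 24.0 CPM. The Itgal call at this step was lost in 4 of 24 fits that left out 1 library (without LT-HSC library 2 or 4 or ST-HSC library 2 or 5, adjusted p up to 0.152), in a fit of only these populations (0.249) and with a replicate block (0.0662).

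Markers of other cells moved with CLP as well. The summed level of 5 B cell markers was 340 to 826 CPM in WT CLP and 0.443 to 3.43 CPM in WT ST-HSC, with Pax5 and Cd22 at 0 in all WT CLP libraries. The sum over 6 basophil and mast cell markers was 18.7 to 2925 CPM in WT CLP and 8.94 to 84.9 CPM in WT ST-HSC. For 6 T and NK cell markers the sum was 73.4 to 505 CPM in WT CLP, 159 to 1542 CPM in knockout CLP and 9.59 to 21.2 CPM in WT ST-HSC, with Cd3e and Cd8a at 0 in all CLP libraries. For 6 macrophage markers it was 54.6 to 140.3 CPM in WT CLP and 22.8 to 43.9 CPM in WT ST-HSC, with C1qa, C1qb and C1qc at 0 in WT CLP. WT CLP libraries also had fewer genes detected than WT ST-HSC libraries (13791 to 15298 against 17753 to 18126). Their mitochondrial share of counts was lower (2.41 to 4.58% against 8.73 to 9.02%), while that of knockout CLP was 3.11 to 12.5%, highest in library 2. The part of these cells and library differences in the CLP levels of the integrins was not tested.

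Itgam, the α chain of Mac-1 and the CD11b antigen of myeloid cells (chromosome 7, 128062640 to 128118491, plus strand), was low in most libraries. WT GMP libraries held 4.83, 6.89, 10.3 and 15.4 CPM, WT ST-HSC libraries 6.60, 14 and 5.72 CPM and WT CMP libraries 3.99 to 6.17 CPM. In MEP it was at 0 in 3 of 4 libraries of each genotype. Its highest level, 34.3 CPM, was in Tet2 knockout CLP library 3, the library with the highest GMP markers. The other 3 knockout CLP libraries, libraries 4 and 5 with high GMP markers among them, held 0 to 2.55 CPM of Itgam. Itgam also passed the WT F test (adjusted p 0.0475) and no single step. A gene of the same strand, Gm49368, overlaps it and lay between 0 and 4.02 CPM. Neutrophil markers summed to 17.1 to 52.8 CPM in WT GMP, and Ltf and Retnlg were at 0 there.

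Itgb3 (chromosome 11, 104608000 to 104670476, plus strand) was detected mainly in LT-HSC, CMP and CLP. WT LT-HSC libraries held 21.2, 19.0 and 10.7 CPM, WT CLP libraries 11, 34.2, 7.14 and 15.6 CPM and WT MEP libraries 0.52, 0.0816, 3.29 and 1.89 CPM. In the knockout, Itgb3 was called higher in CLP than in ST-HSC, at 3.20 (SE 0.90, adjusted p 0.0233), and lower in MEP than in CMP, at -4.71 (SE 0.91, adjusted p 0.00925). The knockout CLP libraries held 28.2, 110.2, 23.7 and 23.5 CPM, and 110.2 CPM belongs to library 3, the library with the highest GMP and megakaryocyte markers. Library 5, the next highest for both, held 23.5 CPM. Without library 3 the change from ST-HSC to CLP was 2.32 (adjusted p 0.0908). Itga2b, the α chain that pairs with Itgb3 in megakaryocytes, had a mean of 80.1 ± 153 CPM (SD, n = 4) in knockout CLP and 2.06 ± 4.06 CPM in WT CLP.

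Cd44 (chromosome 2, 102811141 to 102901665, minus strand) held 22.3 to 48.4 CPM per kb of exon in the WT populations, with its lowest level in LT-HSC and its highest in ST-HSC. WT LT-HSC libraries held 136, 137 and 179 CPM and WT ST-HSC libraries 371, 319 and 294 CPM, without overlap. This step, a rise of 1.14 on the log2 scale (SE 0.22, adjusted p 0.0435), was the only one of the 10 genes called between the stem cell populations of WT mice. It was lost (adjusted p 0.0508) with DESeq2's size factors in place of TMM and in 18 of 22 fits that left out 1 library. In the knockout the ST-HSC libraries held 316, 174, 219 and 185 CPM and the LT-HSC libraries 4.41, 84.6, 132 and 101 CPM, again without overlap, and the difference of 1.49 (SE 0.49, adjusted p 0.395) was not called. CMP, CLP, MEP and GMP had WT means of 192 to 228 CPM and overlapped with each other in that order, while ST-HSC lay above CMP, and GMP above LT-HSC, without overlap.

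Per kilobase of exon, the only scale on which genes can be set beside each other, the leading β chain differed in CLP. Itgb7 held 56.6, Itgb2 44.6 and Itgb1 22.5 CPM per kb in WT CLP, whereas in the other 5 WT populations Itgb1 held 20.6 to 26.8 and none of Itgb2, Itgb3 and Itgb7 passed 4.37. As a share of the 4 β chains, Itgb1 made up 72.4% to 85.9% in those 5 populations and 19.7% ± 10.9 (SD, n = 4) in WT CLP. Itgb7 made up 43.2% ± 7.98 and Itgb2 34.9% ± 8.30 of the β chains in WT CLP. After TMM scaling, the level of Itgb1 itself in WT CLP lay within the range of the other WT populations. That level depends on the low TMM factors of these libraries, whereas the shares do not. In the knockout CLP the shares were 31.4% ± 15.1 for Itgb1, 35.9% ± 21.3 for Itgb7 and 25.6% ± 13.6 for Itgb2, and their SDs span the WT values.

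**Figure D2:**
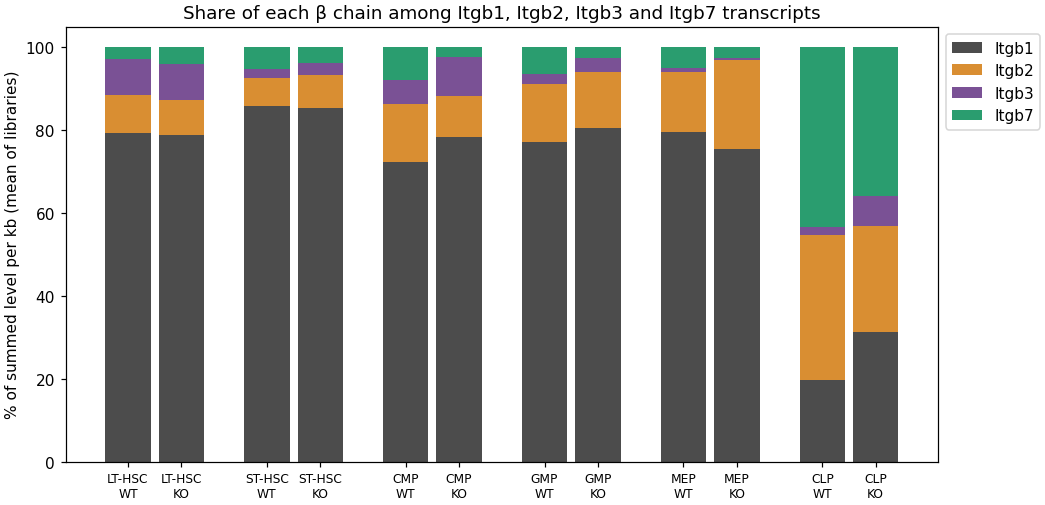
Mean share of Itgb1, Itgb2, Itgb3 and Itgb7 in their summed level per kb, in percent, for each population in WT and Tet2 knockout (KO) mice. Itgb1 fills 72.4% to 85.9% of the WT bars outside CLP and 19.7% in WT CLP, where Itgb7 has 43.2% and Itgb2 34.9%.

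Chains that form 1 receptor did not always follow each other. Over the 46 libraries, which share populations and depth, Itgal and its partner Itgb2 had a Pearson r of 0.59 in log2 CPM, and 0.27 once the group means were removed. Itga4 and Itgb1 had an r of 0.23, and 0.46 within groups, while Itga4 and Itgb7 had 0.06 and 0.16. Itgam and Itgb2 had an r of -0.23. Per kb, the mean level of Itgal was 0.119 times that of Itgb2 in WT LT-HSC, 0.182 times in MEP, 0.507 times in CLP, 1.012 times in GMP, 1.47 times in ST-HSC and 2.20 times in CMP. These correlations describe the libraries and carry no test.

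**Figure D3:**
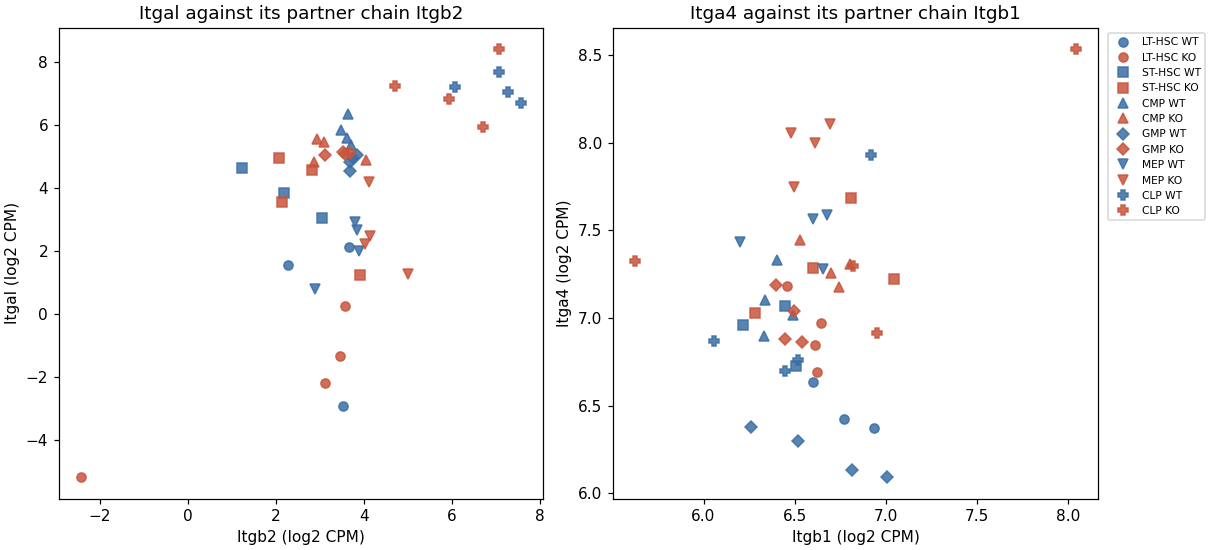
Itgal against Itgb2 and Itga4 against Itgb1 in each of the 46 libraries, both axes in log2 CPM, with populations as symbols, WT in blue and Tet2 knockout (KO) in red. Itgal and Itgb2 are both high in CLP. Outside CLP, Itga4 runs from 68.2 to 276 CPM and Itgb1 from 73.5 to 132 CPM, while in knockout CLP Itgb1 itself runs from 49.3 to 264 CPM.

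The genes most like each member over the 46 libraries (highest Pearson r of log2 CPM among 11321 genes) were, for Itgb7, Il7r (0.88) and Ly6d (0.85), both lymphoid progenitor antigens. They were Ccr2 (0.87) and Selplg (0.84) for Itgal, a chemokine receptor and the ligand of P-selectin, and Trem1 (0.82) and Csf3r (0.78) for Itgam, the latter the G-CSF receptor. For Itgb3 they were Bcl2 (0.77) and Fli1 (0.76), and for Cd44, Chst15 (0.71) and Cd48 (0.63). Itgb2 had Cyba (0.79) and Tmem109 (0.79), and Itga4 had Mbp (0.76) and Prpf4b (0.71). Itga5 had Washc5 (0.88) and Nol9 (0.85), Itga6 had G430095P16Rik and Prkci (both 0.88), and Itgb1 had Rtl9 and Gm49364 (both 0.64).

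Between genotypes, Itga4 was higher in the Tet2 knockout, by the mean over the populations and, within them, in GMP and MEP. Its fitted level was higher in the Tet2 knockout in 6 of 6 populations, and the mean effect over the 6 was 0.47 on the log2 scale (SE 0.10, edgeR adjusted p 0.00128). Itga4 was the 1 of 10 members called for the mean effect, beside 6.94% of the 22360 genes tested. In GMP, WT libraries held 70.1, 68.2, 78.7 and 83.3 CPM and knockout libraries 117, 146, 132 and 118 CPM. Every knockout GMP library lay above every WT one, and the change was 0.74 (SE 0.12, adjusted p 0.00393). In MEP, WT libraries held 189.7, 193, 173 and 156 CPM and knockout libraries 276, 255, 215 and 266 CPM, again without overlap, with a change of 0.50 (SE 0.12, adjusted p 0.037). Both passed the p threshold and not 2-fold.

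In the other populations the Itga4 change was 0.47 (SE 0.20, adjusted p 0.934) in LT-HSC, 0.43 (SE 0.20, adjusted p 0.867) in ST-HSC, 0.19 (SE 0.12, adjusted p 0.459) in CMP and 0.51 (SE 0.43, adjusted p 1) in CLP. The LT-HSC libraries did not overlap: 86.0, 99.3 and 82.9 CPM in WT and 125, 104, 115 and 145 CPM in the knockout. Knockout CLP libraries held 371, 160.2, 121 and 157 CPM and WT CLP libraries 244, 104, 117 and 108 CPM, and they overlap through library 2 of WT. Without knockout library 2, at 371 CPM, the CLP change of Itga4 was 0.05. The genotype effect on Itga4 was not shown to differ between populations (adjusted p 1). Fitted with all 46 libraries in 1 model, the GMP change of Itga4 had an adjusted p of 0.154, and that of MEP was 0.511. Leaving out single MEP libraries moved the MEP value from 0.0262 to 0.108. Other markers moved with these groups: summed HSC markers were 78.1 to 88.5 CPM in WT MEP and 91.6 to 118 CPM in knockout MEP, and summed erythroid markers 83.8 to 111 CPM in WT GMP and 115 to 170 CPM in knockout GMP. The mitochondrial share of counts also separated the genotypes in GMP (3.64 to 4.6% in WT, 4.74 to 5.09% in the knockout), in CMP (5.94 to 6.57% and 7.85 to 8.37%) and in ST-HSC (8.73 to 9.02% and 10.0 to 13.1%), and it overlapped in the other 3 populations. Their part in the Itga4 levels was not tested.

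**Figure D4:**
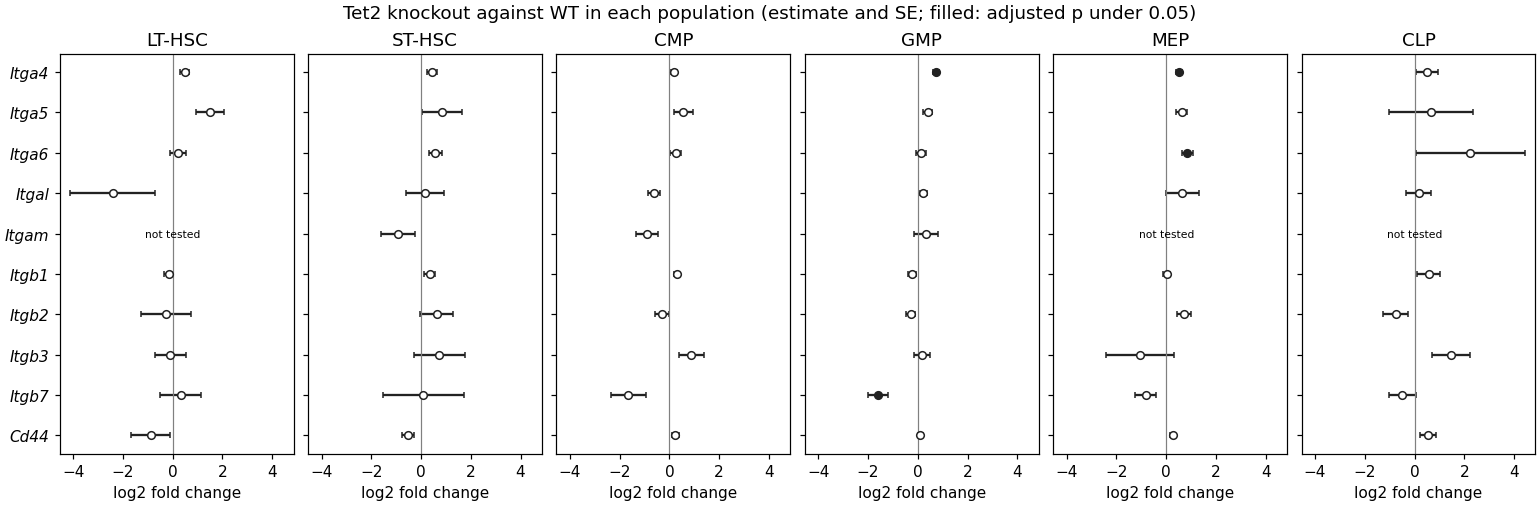
Log2 fold change of the Tet2 knockout against WT for each gene in each population, with bars of 1 SE and filled points where the adjusted p was under 0.05. The filled points are Itga4 and Itgb7 in GMP and Itga4 and Itga6 in MEP, and the points of Itga4, Itga5 and Itga6 all lie to the right of 0.

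Itgb7 was the only member called at 2-fold between genotypes within a population. In GMP, WT libraries held 8.44, 6.52, 2.79 and 5.61 CPM and knockout libraries 3.07, 1.73, 1.18 and 1.82 CPM, a change of -1.59 (SE 0.40, adjusted p 0.0391). The knockout was low in all 4 libraries, but WT library 4 fell within its range, and the call held in only 2 of 8 fits that left out 1 library. It was also lost in the fit of all 46 libraries and without the filter on low counts. In CMP the change was -1.67 (SE 0.70, adjusted p 0.242), with 2.61 to 10.9 CPM in WT and 0.324 to 3.85 CPM in the knockout. In MEP, WT libraries held 3.54 to 4.16 CPM and knockout libraries 0.911 to 3.32 CPM, without overlap (change -0.83, SE 0.42, adjusted p 0.38). CLP markers summed to 33.0 to 70.3 CPM in WT GMP and 19.3 to 39.4 CPM in knockout GMP, and their part in the Itgb7 levels was not tested. In CLP, where Itgb7 was abundant, the change was -0.50 (SE 0.54, adjusted p 1).

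Itga6 passed the p threshold in MEP. WT libraries held 6.36, 8.57, 10.4 and 8.0 CPM and knockout libraries 17.4, 15.2, 15.4 and 12.6 CPM, a change of 0.85 (SE 0.20, adjusted p 0.0429). Leaving out 1 library moved the adjusted p from 0.0492 to 0.115, and Itga6 did not pass with all 46 libraries in 1 fit (adjusted p 1), with a replicate block (0.135) or without the filter on low counts (0.082). All knockout libraries lay above all WT libraries, also in ST-HSC (25.0 to 32.4 against 33.8 to 53.9 CPM, change 0.58, SE 0.26, adjusted p 0.854). Its mean effect over the populations was 0.72 (SE 0.36, adjusted p 0.3). Without WT CLP library 3 alone, the Itga6 mean effect was 1.65 (adjusted p 9.85e-08), and without all CLP libraries it was 0.41. Its LT-HSC change of 0.22 became -0.01 without knockout library 5. Itga5 was fitted higher in 6 of 6 populations, from 0.39 in GMP to 1.5 in LT-HSC, and none was called. The CLP change of Itga5, 0.65, became -0.65 without knockout library 3. Its mean effect was 0.75 (SE 0.35, adjusted p 0.255). In MEP its WT libraries held 11.5, 22.4, 14.6 and 15.3 CPM and its knockout libraries 24.9, 22.9, 28.1 and 22.8 CPM, without overlap (change 0.62, SE 0.21, adjusted p 0.166).

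Itgb1 was not called between genotypes. Its mean effect was 0.14 (SE 0.11, adjusted p 0.662), and CMP was the only population without overlap, at 80.8, 84.6, 89.8 and 80.6 CPM in WT and 112, 92.2, 107 and 104 CPM in the knockout (change 0.29, SE 0.10, adjusted p 0.149). Itgb2 in MEP held 13.8, 14.2, 14.7 and 7.36 CPM in WT and 17.2, 31.9, 17.4 and 16.3 CPM in the knockout, without overlap (change 0.71, SE 0.29, adjusted p 0.264). Itgal in CMP had a change of -0.63 (SE 0.25, adjusted p 0.199), with overlapping libraries. In GMP, knockout Itgal libraries at 33.5 to 35.8 CPM lay just above the WT range of 23.3 to 33.1 CPM. Itgam was tested in 3 populations, with changes of -0.94 in ST-HSC, -0.91 in CMP and 0.32 in GMP, and was left out of LT-HSC, MEP and CLP by the filter on low counts. Itgb3 ranged from -1.07 in MEP to 1.46 in CLP, with no call. The CLP change of Itgb3 was 0.53 without knockout library 3, and its MEP change ran from -2.12 to -0.31 when single libraries were left out.

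Cd44 was fitted lower in the knockout stem cells and higher in the progenitors. LT-HSC libraries held 136, 137 and 179 CPM in WT and 4.41, 84.6, 132 and 101 CPM in the knockout, without overlap. The change was -0.89 (SE 0.79, adjusted p 0.998), and -0.50 without knockout library 2, which held 4.41 CPM. In ST-HSC the change was -0.52 (SE 0.24, adjusted p 0.836). In MEP, WT libraries held 215, 178, 211 and 209 CPM and knockout libraries 217, 233, 276 and 251 CPM, just without overlap (change 0.26, SE 0.11, adjusted p 0.279). The difference between populations in the Cd44 effect was not called (adjusted p 0.533), though it was called with a replicate block.

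Counted over the set, 0 of the members tested were called at 2-fold in LT-HSC, ST-HSC, CMP, MEP and CLP and 1 of 10 in GMP. The shares of all genes called were 0.0245%, 0.0185%, 4.57%, 4.36%, 0.00766% and, in GMP, 4.37%. By adjusted p alone, 0 of 10 passed in CMP, 2 of 10 in GMP and 2 of 9 in MEP, beside 6.89%, 6.56% and 5.66% of genes. With edgeR's unadjusted p under 0.05, 2 members passed in LT-HSC, 0 in ST-HSC, 3 in CMP, 3 in GMP, 5 in MEP and 0 in CLP, beside 5.16%, 6.13%, 19.1%, 17.3%, 16.4% and 3.65% of genes. DESeq2 called 1 member in GMP, at its adjusted p and 2-fold, and 0 in each of the other 5 populations. The libraries of both genotypes did not overlap for 2 of 9 members in LT-HSC, 1 of 10 in ST-HSC, 1 of 10 in CMP, 2 of 10 in GMP, 6 of 9 in MEP and 0 of 9 in CLP. Among all genes tested these shares were 7.08%, 8.14%, 15.8%, 13.3%, 13% and 3.87%, and the MEP count lay farthest above its background. Of the 6 members in MEP, Itga4, Itga5, Itga6, Itgb2 and Cd44 were higher in the knockout and Itgb7 was lower. Each had an exact two-sided permutation p of 0.0286, the smallest that 4 against 4 libraries allow, and 0.19 after adjustment over 60 such tests. The median change of the members was -0.09 in LT-HSC, 0.39 in ST-HSC, 0.22 in CMP, 0.16 in GMP, 0.50 in MEP and 0.53 in CLP, beside 0.03 to 0.07 over all genes. No member was called for a genotype effect differing between populations, beside 2.65% of 22360 genes. With the library number as a replicate block, 2 members were called, Itga6 and Cd44. Whether libraries of 1 number came from 1 mouse is not known. Itgam came nearest (p 0.0495, edgeR adjusted p 0.355), as the 1 member with an unadjusted p under 0.05, and DESeq2 called 0.

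The other genes of integrin adhesion were taken from lists by function. Of 16 other integrin subunits, 2 of 8 tested were called in GMP, beside 4.37% of genes. The counts were 0 of 7 in LT-HSC, 0 of 9 in ST-HSC, 0 of 9 in CMP, 0 of 2 in MEP and 0 of 4 in CLP. Itga1, a collagen receptor chain, was higher in the knockout at 19.4 to 23.2 CPM against 6.89 to 12.1 CPM (change 1.04, SE 0.20, adjusted p 0.00943), and Itgb6 was at 0 in all knockout libraries and at 0.224 to 0.559 CPM in WT. Of 27 genes of integrin activation and linkage, 1 of 22 was called in CMP, 1 of 23 in GMP and 1 of 22 in MEP, near the 4.57%, 4.37% and 4.36% of all genes. The counts were 0 of 23 in LT-HSC, 0 of 22 in ST-HSC and 0 of 21 in CLP. Rasgrp2, an exchange factor for Rap1, was lower in knockout CMP (16.8 to 19.1 against 48.3 to 50.4 CPM, change -1.45, SE 0.13, adjusted p 0.000169). In the CMP libraries erythroid markers summed to 577 to 1561 CPM in WT and 2791 to 5615 CPM in the knockout, and their part in this difference was not tested. Zyx, the focal adhesion protein zyxin, was lower in knockout GMP (26.9 to 36.2 against 45.2 to 124 CPM, change -1.49, SE 0.29, adjusted p 0.00971). Vcl, vinculin, which links talin to actin, was higher in knockout MEP (27.7 to 84.6 against 10.1 to 15 CPM, change 2.27, SE 0.33, adjusted p 0.00304).

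For the mean effect, 3 of 26 activation and linkage genes passed, beside 6.94% of all genes. Tln1 (talin) had a mean effect of 0.50 (SE 0.14, adjusted p 0.0233) and Apbb1ip (RIAM, which brings talin to the membrane) of 0.63 (SE 0.15, adjusted p 0.00636), while Rap1a, the GTPase upstream of RIAM, had -0.43 (SE 0.11, adjusted p 0.00669). Among 12 ligands and counter-receptors tested, Fn1 (fibronectin) alone passed, at 0 to 5.13 CPM in WT libraries. No tested ligand, counter-receptor, Cd44 linker or hyaluronan receptor was called between genotypes within a population. Of 16 other adhesion molecules, 1 of 14 tested was called in GMP, beside 4.37% of all genes. It was Selp (P-selectin), higher in the knockout (change 1.23, SE 0.27, adjusted p 0.0169). For these molecules the counts were 0 of 16 in LT-HSC and 0 of 15 in each of ST-HSC, CMP, MEP and CLP. For the mean effect 2 of 16 passed, beside 6.94% of all genes: Selp, with 1.55, and Cd47. In GMP the megakaryocyte markers summed to 23.8 to 62.6 CPM in WT and 27.3 to 137 CPM in the knockout, and Itga2b, 1 of them, held 12.3 to 17.0 and 22.2 to 48.2 CPM. Their part in the Selp level was not tested. Cd47, the signal that stops engulfment by macrophages, had a mean effect of -0.42 (SE 0.12, adjusted p 0.023). For a genotype effect differing between populations, 2 of these 16 genes were called, beside 2.65% of 22360 genes. They were Selp (adjusted p 0.0209) and the tetraspanin Cd81 (adjusted p 0.0483), and no gene of the other lists was called.

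Along the step from ST-HSC to CLP in WT, 9 of 25 activation and linkage genes were called higher and 2 lower, beside 24.5% of all genes called in either direction. Those higher included Fermt3, the kindlin of blood cells (262 against 80.4 CPM, change 1.68, adjusted p 3.1e-06), Rap1a (291 against 115 CPM, change 1.32, adjusted p 5.55e-05) and Ilk (102 against 34.1 CPM, change 1.55, adjusted p 5.78e-05). Skap2 was lower (85.3 against 248 CPM, change -1.57, adjusted p 0.00556). In the knockout 8 of 25 were called higher and 1 lower, beside 20.1% of all genes. Fermt3 and Ilk were among the higher, and Rap1a was not called. Of 11 ligands and counter-receptors tested, 2 were called at this step in WT, and in the knockout 1, Jam3, which was lower. In WT, Icam1, the ligand of LFA-1, was higher in CLP (105 against 37.2 CPM, change 1.48, adjusted p 0.0153), and Lama4, a laminin chain, was lower, at 0 CPM in CLP against 1.16 CPM in ST-HSC. Of 6 Cd44 linkers and hyaluronan receptors tested in WT, 3 were called higher in CLP and 0 lower, beside 24.5% of all genes. They were Ezr (173 against 44.4 CPM, change 1.94, adjusted p 6.64e-06), Nf2 and Stab2. Of the other linkers, not called, Rdx had a lower WT mean in CLP (78.7 against 118 CPM) and Msn a higher one (305 against 206 CPM). In the knockout 2 of 6 were called higher, Ezr and Stab2, beside 20.1% of all genes. Of the 13 other integrin subunits tested, 3 were called lower in WT, near the share of all genes. In the knockout 2 were called higher, Itga1 and Itgax, and 0 lower, beside 20.1% of all genes. From CMP to MEP in WT, 7 of 25 activation and linkage genes were called lower, beside 6.45% of all genes called in either direction. Among them were Tln1 (62.7 against 129 CPM, change -1.08, adjusted p 0.000663) and Rasgrp2 (8.84 against 49.0 CPM, change -2.52, adjusted p 3e-05). In the knockout 4 of 25 were called lower, beside 3.62% of all genes, with Rasgrp2 among them and Tln1 not. The rise of Fermt3 and Ilk was not particular to CLP. From ST-HSC to CMP in WT, 4 of 25 activation and linkage genes were called higher, beside 5% of all genes. Among them were Fermt3 (249 against 80.4 CPM, change 1.63, edgeR adjusted p 3.06e-05) and Ilk (113 against 34.1 CPM, change 1.73, adjusted p 0.000115). In the knockout 1 of 25 was called at that step, Ilk, beside 3.33% of all genes.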

How the data were processed

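RNA was measured in 46 libraries of sorted marrow cells, each made from 200 cells with a SMART-seq kit per the labels. The authors trimmed reads with Trim Galore and aligned them with HISAT2 to mm10 (the processing notes also name mm9), and deposited whole-number counts per gene, with no normalization. The counting program, annotation and strand setting are not given in the sources used here. Gene positions and exon lengths come from the mm10 annotation. A second table of the series, with other genotypes, was not used here.

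Each WT and Tet2 knockout pair of groups was fitted alone with edgeR 4.0.16 in R 4.3.3 (filterByExpr with a count minimum of 10, TMM scaling, quasi-likelihood test, prior count 2). The populations of 1 genotype were fitted together for the F test and the steps, and all 46 libraries for the mean effect and for its difference between populations. Calls needed an adjusted p under 0.05 (Benjamini-Hochberg over all genes tested) and, between 2 groups, a 2-fold change, as in the methods of the study. Exact permutation tests over libraries were two-sided. CPM values over 46 libraries use TMM scaling. All 10 members are named, with Tet2 and Itga2b, the 2 genes most like each member (mean of at least 10 CPM in a group), list genes where called in a genotype comparison, and, of the list genes called at a step, a few chosen after their values were seen. Positive fold changes mean higher in the knockout or in the later population. Alternatives were DESeq2 1.42.0, its size factors (RLE), no filter, 1 fit of all libraries, only the 2 populations compared, the library number as a block (limma 3.58.1 for part of it), and leaving out each library, which in the fit of all 46 kept the genes and the dispersion trend. Fits leaving out the CLP libraries were added after the data were seen. Test scripts were tested on simulated data. Libraries held 50458473 to 102148079 counts, and amplified reads are not independent molecules. p-values measure the spread between libraries, and nothing in the labels says that each came from its own mouse, though the study counts replicates of its transcriptomes as mice. The members and lists were chosen with earlier results of these data known.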

Additional observations from a re-analysis of the deposited data

Results flagged for a closer look

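Dixon's test was run on log2 CPM over 10 groups of 4 libraries and 10 genes. In 14 of 100 group values, 1 library lay farther from the other 3 than the test allows at its 95% limit, and chance marks about 5%. The values below are in CPM, on which the distances look different.

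In stem cells, Cd44 in Tet2 knockout LT-HSC library 2 was 4.41, with the others at 84.6 to 132, and Itgb2 in knockout LT-HSC library 5 was 0.158, with the others at 8.62 to 11.8. In GMP, Itga6 in WT library 4 was 22.0, with the others at 14 to 14.8, and Itga5 in knockout library 2 was 33.3, with the others at 37.5 to 38.3. In MEP, Itgb1 in WT library 4 was 73.5, with the others at 97.0 to 102, Itgb2 in WT library 5 was 7.36, with the others at 13.8 to 14.7, and Itgb2 in knockout library 3 was 31.9, with the others at 16.3 to 17.4.

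In CLP, Itga4 in WT library 2 was 244, with the others at 104 to 117. Itga5 in WT library 4 was 0, with the others at 9.10 to 20.03. Itgb3 in knockout library 3 was 110.2, with the others at 23.5 to 28.2, and this is the library with the highest GMP and megakaryocyte markers, library 5 being next for both.

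Itgam was marked in 4 groups where the other 3 libraries were at 0: 0.0703 in knockout LT-HSC library 2, 0.419 in WT MEP library 4, 0.913 in knockout MEP library 3 and 1.22 in WT CLP library 5. With the other 3 equal, any other value is marked, so the chance share does not apply to these.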

How the results depend on the processing

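No call turned its direction. Itga4's mean effect was called under all 51 alternatives (0.39 to 0.58 on the log2 scale), and Itgb2, Itgb7 and Itgal from ST-HSC to CLP and Itgal from CMP to MEP in WT were called under every alternative. The number of members called in GMP between genotypes, 1, was 0 in the fit of all 46 libraries and without the filter. For the steps in WT, DESeq2 called 2 of 10 from LT-HSC to ST-HSC, 2 from ST-HSC to CMP and 3 from CMP to MEP. Fitted with only the 2 populations compared, these steps gave 0, 1 and 4, and CMP to GMP gave 1. The LT-HSC to ST-HSC call in WT was also 0 without the filter and with RLE size factors. In the knockout, DESeq2 called 2 from LT-HSC to ST-HSC and 2 from CMP to MEP, and the fit of only 2 populations gave 0 and 2, and 3 from ST-HSC to CLP and 3 from CMP to GMP.

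Of 22 pairs of WT and knockout libraries with 1 number, 0 had deviations correlated above 0.1 (-0.0216 to 0.0345). Of 111 pairs of populations with 1 genotype and number, 1 did (-0.0162 to 0.106). Most of these 111 values were weakly positive. Between LT-HSC and ST-HSC of the knockout they were 0.0864, 0.0603, 0.106 and 0.00984 for numbers 2 to 5. A limit of 0.1 cannot decide whether libraries of 1 number came from 1 mouse. With the number as a replicate block, 2 members (Itga6 and Cd44) were called for a genotype effect differing between populations and 2 (Itga4 and Itga6) for the mean effect, and 0 from LT-HSC to ST-HSC in WT and in the knockout.

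Leaving out 1 library gave 0 to 1 members in GMP between genotypes (main 1), and in WT 0 to 1 from LT-HSC to ST-HSC, 0 to 1 from ST-HSC to CMP, 0 to 1 from CMP to GMP and 1 to 3 from CMP to MEP. In the knockout it gave 0 to 1 from LT-HSC to ST-HSC and 1 to 2 from CMP to MEP. It gave 0 to 1 for differing genotype effects and 1 to 2 for the mean effect, the added gene being Itga6 without WT CLP library 3. The cause was not tested.

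Over all genes, the number called between genotypes was 4 in LT-HSC (DESeq2 145, fit of all libraries 20), 3 in ST-HSC (191 and 21), 1 in CLP (120 and 1477), 734 in CMP (fit of all libraries 285), 723 in GMP (219) and 651 in MEP (423). At this depth a level of 0, as for Itgam in 3 of 4 WT CLP libraries, does not show that 200 cells lacked the gene.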
